A study of Mus musculus with 3 samples.

Results

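The enzymes that write, copy and remove DNA methylation were followed at the transcript level in mouse embryonic stem (ES) cells. The set held 9 genes, chosen by name, and all 9 were among the 15311 genes measured. They were the methyltransferase genes Dnmt1, Dnmt3a and Dnmt3b, their cofactors Dnmt3l and Uhrf1, the dioxygenase genes Tet1, Tet2 and Tet3, and the glycosylase gene Tdg. Polyadenylated RNA was sequenced from 3 libraries: 2 of wild type, replicates 1 and 2, and 1 of K3R3. The cells of all 3 libraries came from the KH2 line, whose strain the labels give as V6.5, a male cross of 129SvJae and C57BL/6. A lentiviral transgene with a CMV promoter under the control of rtTA and 1 µg/ml doxycycline supplied H2A.Z, a histone variant, with yellow fluorescent protein (YFP) at its C-terminus. The transgene was wild type in one group. In K3R3, the lysines at positions 119, 120 and 123 of H2A.Z were arginines. Cells were sorted for YFP, and a hairpin that targets the cells' own H2A.Z mRNA outside its coding part was also present in both groups. Of the 2 hairpins the labels list, they do not say which was used in which library, nor whether a line was 1 clone or a pool, nor whether separate cultures gave the wild-type pair. What a p-value measures is therefore the spread among the libraries at hand, possibly a technical one. The cells grew on feeder fibroblasts in serum with LIF, without feeders in the last passage. The series asks how ubiquitylation of H2A.Z bears on poised chromatin.

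Methylation of cytosine in CpG dinucleotides is set by DNMT3A and DNMT3B and copied onto the new strand after replication by DNMT1, which UHRF1 recruits to hemimethylated DNA. DNMT3L has no catalytic activity of its own and stimulates the de novo enzymes. TET proteins oxidise methylcytosine step by step, and TDG excises the oxidised bases, which base excision repair then replaces with cytosine. ES cells in serum express both arms of this cycle, with TET1 and TET2 as their main TET proteins.

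Tet2 fell in K3R3, and it was the 1 member called lower by both edgeR and DESeq2. The other dioxygenases and the methyltransferases were not called different by any tool run, except Dnmt3l, whose call rested on 1 wild-type library. Of the 8 members with enough reads to be tested, 2 were called lower (Tet2 and Dnmt3l) and 0 higher by the quasi-likelihood test of edgeR, adjusted after Benjamini and Hochberg, at 0.05. Over all 13829 genes tested, 0.542% were called lower and 2.02% higher. At an unadjusted p under 0.05 the same 2 members were lower and 0 higher, against 3.33% and 7.9% of all genes. DESeq2 called 1 member lower, Tet2, and 0 higher, against 0.188% and 0.239% of all genes. The median fitted change of the 8 members was -0.23 on the log2 scale, and that of all genes tested was -0.01. All tested members but Tet3 had a mean of 100 CPM or more, a level at which calls leaned downwards. Of the 2544 tested genes at that level, 33 were called lower and 3 higher. The shares and the median over all genes are not matched for level. Levels below are CPM (counts scaled to library size), with TMM factors, unless RPKM is named.

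**Figure D1:**
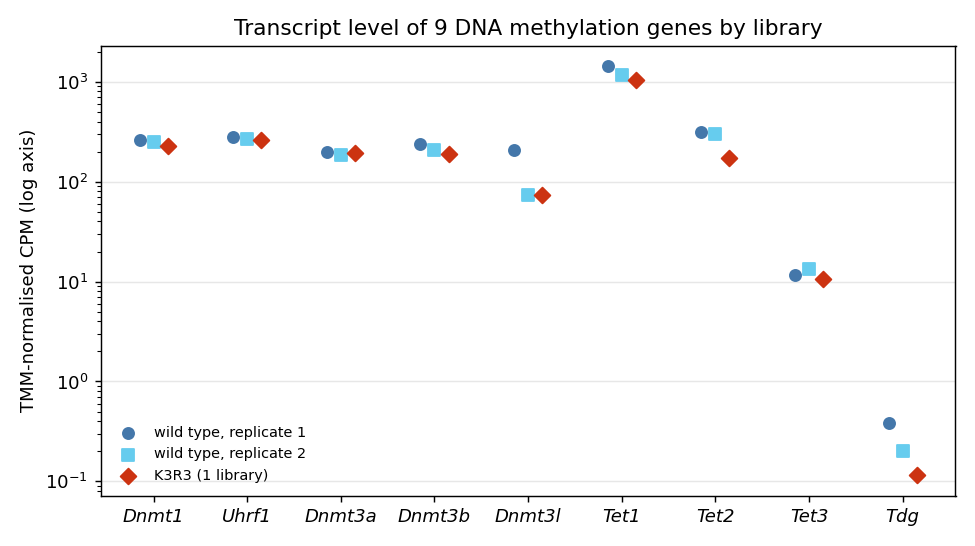
TMM-normalised CPM (log axis) of the 9 genes in the 2 wild-type libraries and the K3R3 library, 1 point per library. The K3R3 point of Tet2 (174 CPM) lies apart from both wild-type points (316 and 302 CPM), whereas for Dnmt3l it is wild-type replicate 1 (209 CPM) that lies apart from the other two libraries.

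Tet2 encodes a dioxygenase without a CXXC DNA-binding domain of its own. It stood at 316 CPM in wild-type replicate 1, 302 CPM in replicate 2 and 174 CPM in K3R3. Both wild-type libraries were close together and K3R3 lay well below them. The K3R3 level was 56.2% of the wild-type mean of 309 ± 9.93 CPM (SD, n = 2). The fitted change was -0.83 on the log2 scale (SE 0.19; adjusted p = 0.00324 by edgeR), with a 95% interval of -1.21 to -0.455. DESeq2 gave -0.83 as well (adjusted p = 0.0322). Against each wild-type library alone the difference was -0.86 and -0.80, while the wild-type libraries differed from each other by -0.07. With library totals implied by the deposited RPKM values it was -0.71, when the median of all genes moved from -0.01 to 0.10. Among 2544 genes whose mean was 100 CPM or more, 16, Tet2 included, had a fitted change at or below this value, and 33 were called lower and 3 higher. In the authors' deposited table the wild-type to K3R3 ratio of Tet2 was 1.79, with an unadjusted p of 0.000399. Benjamini-Hochberg adjustment of the deposited p-values over the whole table gave 0.0814 for it, which misses 0.05.

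Tet1, the most abundant TET transcript of ES cells, had 1426 and 1169 CPM in the wild-type pair and 1046 CPM in K3R3. The K3R3 value was the lowest of the 3, but the distance between the wild-type libraries was larger than that between K3R3 and replicate 2. The fitted difference was -0.31 (SE 0.16; adjusted p = 0.497 by edgeR), with a 95% interval of -0.63 to 0.01, and it was -0.45 and -0.16 against each wild-type library alone. The change of Tet2 against that of Tet1 was not tested as a difference. Tet3, the TET gene known for its role in the zygote, stood far lower, at 11.7 and 13.3 CPM in the wild-type pair and 10.7 CPM in K3R3. Its difference of -0.23 had a 95% interval of -0.92 to 0.465, which includes a change of the size of Tet2. Counting error alone (246 to 331 reads per library) gave its K3R3 to wild-type ratio an interval of 0.733 to 0.981, so depth alone does not set that width. Tet3 was also the 1 member classed as bivalent in the deposited class column, in which the other 8 were active. Of all 13829 genes tested, 1671 were bivalent. Bivalent promoters carry an activating and a Polycomb mark together.

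Levels of different genes were compared per length, as deposited RPKM. Tet1 made up 74.1% and 70.9% of the summed TET RPKM in the wild-type pair and 78.9% in K3R3. Tet2 made up 25.2% and 28.1% in wild type and 20.1% in K3R3, and Tet3 between 0.785% and 1.04% in the 3 libraries. The ratio of Tet1 to Tet2 was 2.94 and 2.53 in wild type and 3.93 in K3R3. K3R3 lay outside the wild-type pair for every ratio between members that was computed, so this position is not particular to Tet1 and Tet2. The summed TET RPKM was 88.0 and 76.5 in wild type and 66.5 in K3R3. Tet1 held the larger part of that fall in RPKM against replicate 1, and Tet2 against replicate 2.

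**Figure D2:**
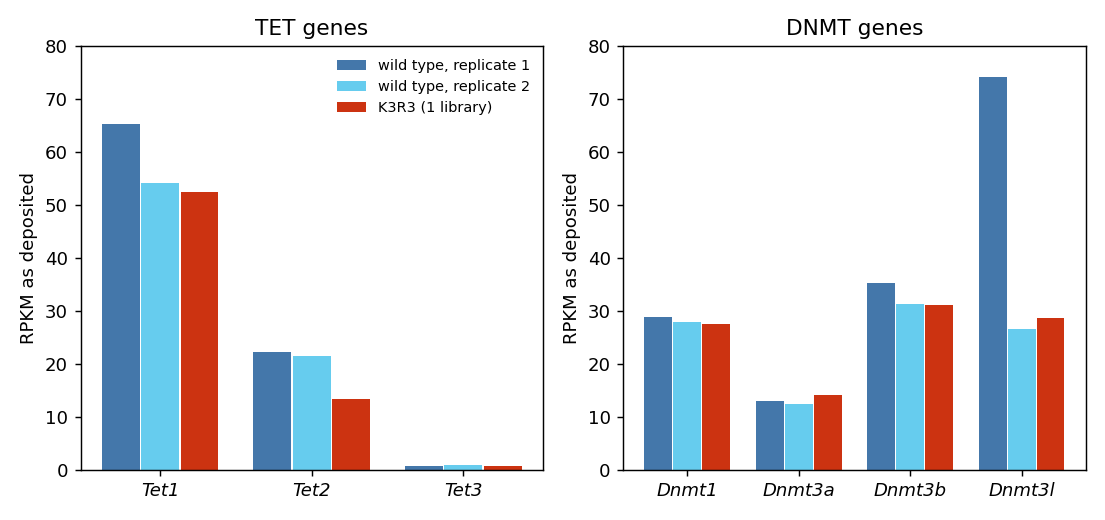
Deposited RPKM of the TET genes (left) and the DNMT genes (right), 1 bar per library. Tet2 is at 22.1 and 21.5 RPKM in wild type and 13.4 RPKM in K3R3, and Dnmt3l spans 26.6 to 74.1 RPKM within wild type.

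Dnmt3l encodes the catalytically inactive partner of the de novo methyltransferases. It had 209 CPM in wild-type replicate 1, 73.8 CPM in replicate 2 and 73.6 CPM in K3R3. K3R3 and replicate 2 were thus level, and replicate 1 was 2.83 times replicate 2. For every gene, Tet2 included, the variance in edgeR came from the trend over all genes and not from the gene's own replicates. The fitted change of Dnmt3l, -0.94 (SE 0.21), was called by edgeR (adjusted p = 0.00248). DESeq2 did not call it (adjusted p = 1.00), and in the authors' deposited table its unadjusted p was 0.649. Without wild-type replicate 1 the difference was -0.004, and without replicate 2 it was -1.50. By the deposited RPKM, K3R3 (28.6) lay between the wild-type values (74.1 and 26.6). The difference of Dnmt3l thus lay within wild type rather than between K3R3 and replicate 2. Of those 2544 abundant genes, 2, Dnmt3l included, had wild-type libraries at least this far apart. Of 12761 genes whose mean was 1 CPM or more, 1.29% had wild-type libraries 2-fold or more apart, and Dnmt3l was the 1 member among them. Aire, which encodes an autoimmune regulator and lies antisense to the start of Dnmt3l in the GENCODE annotation, showed 67 and 20 counts in the wild-type pair and 15 in K3R3. The 2 genes share 33 stretches of 36 bases on opposite strands, and the sources used here do not give the strand setting of the counting.

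The active de novo enzymes showed no called difference. Dnmt3a had 197 and 184 CPM in the wild-type pair and 195 CPM in K3R3, between the wild-type values. Its fitted difference was 0.04, with a 95% interval of -0.35 to 0.42. Dnmt3b had 236 and 206 CPM in the wild-type pair and 190 CPM in K3R3. The fitted difference of Dnmt3b was -0.22, with a 95% interval of -0.61 to 0.16, and the wild-type libraries themselves differed by -0.19. Per length, Dnmt3b was the larger of the pair in every library, with a ratio of Dnmt3b to Dnmt3a of 2.70 and 2.53 in wild type and 2.19 in K3R3. The ratio of Dnmt3l to Dnmt3a was 5.69 and 2.15 in wild type and 2.02 in K3R3.

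The maintenance pair likewise showed no called difference. Dnmt1 had 263 and 251 CPM in the wild-type pair and 229 CPM in K3R3, a fitted difference of -0.17 with a 95% interval of -0.54 to 0.21. K3R3 was thus the lowest of the 3 libraries for Dnmt1, by -0.20 and -0.13 against each wild-type library, which differed from each other by -0.06. Uhrf1 had 281 and 265 CPM in the wild-type pair and 264 CPM in K3R3, a fitted difference of -0.05 with a 95% interval of -0.42 to 0.33. The sign of the Uhrf1 difference turned with library totals implied by RPKM (0.078). The ratio of Uhrf1 to Dnmt1 in RPKM was 1.76 and 1.74 in wild type and 1.90 in K3R3. For Dnmt1, Dnmt3a, Dnmt3b and Uhrf1 the adjusted p was at least 0.875 by edgeR, and the intervals leave room for falls of up to -0.61 (Dnmt3b) and rises of up to 0.42 (Dnmt3a).

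**Figure D3:**
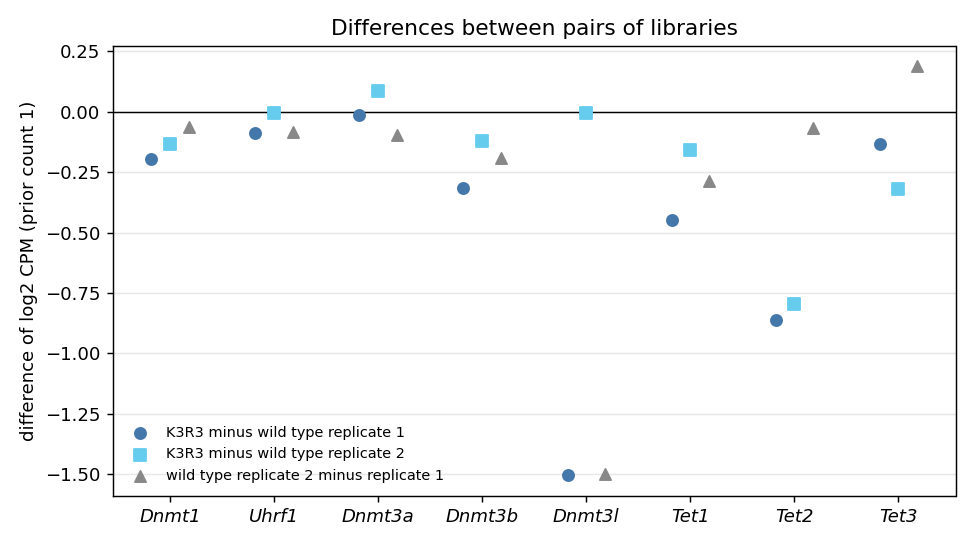
Differences of log2 CPM between pairs of libraries (prior count 1) for the 8 tested genes: K3R3 minus each wild-type library and wild-type replicate 2 minus replicate 1. For Tet2 both K3R3 differences (-0.86 and -0.80) lie far from the wild-type difference (-0.07), and for Dnmt3l the wild-type difference (-1.50) is as large as the difference between K3R3 and replicate 1.

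By position in CPM, K3R3 lay below both wild-type libraries for 7 of the 8 tested members and above both for 0. Over all genes tested the shares were 34.2% and 33.9%. The shares of all genes in this paragraph are not matched for level. Calls leaned downwards among genes with a mean of 100 CPM or more, a level that all tested members but Tet3 had. For Dnmt3l and Uhrf1, K3R3 differed from replicate 2 by only -0.004 and -0.0034 on the log2 scale. With the deposited RPKM it lay below both for 4 of the 8, against 19.2% of all genes, above both for 2 (Dnmt3a and Uhrf1), against 48.7% of all genes, and between them for 2 (Dnmt3l and Tet3). Dnmt1, Dnmt3b, Tet1 and Tet2 were below both on either scale. Of the 8 members with a mean of 1 CPM or more, 0 were 2-fold or more from both wild-type libraries in either direction on the log2(CPM + 1) scale, a rule met by 0.172% of 12761 genes downwards and 2.1% upwards.

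In wild type the order of mean RPKM was Tet1 (59.7), Dnmt3l (50.3), Uhrf1 (49.5), Dnmt3b (33.2), Dnmt1 (28.3), Tet2 (21.8), Dnmt3a (12.7), Tet3 (0.745) and Tdg (0.0585). The wild-type SD was 7.77 for Tet1, 33.6 for Dnmt3l and 1.53 for Uhrf1, so the place of Dnmt3l among the first 5 genes is not set by these libraries. Uhrf1, Dnmt3b, Dnmt1, Tet2 and Dnmt3a did not overlap with each other in wild type, where the SD of all but Uhrf1 was between 0.477 and 2.79. In K3R3, Tet1 (52.5) and Uhrf1 (52.3) were level, Dnmt3b (31.0), Dnmt3l (28.6) and Dnmt1 (27.5) followed, and Dnmt3a (14.2) stood above Tet2 (13.4). Tet2 exceeded Dnmt3a in both wild-type libraries.

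Tdg, the glycosylase gene, was listed with 8 and 5 counts in the wild-type pair and 3 in K3R3, below the mean of 0.5 CPM required for the test. The K3R3 to wild-type ratio was 0.406 with an exact conditional 95% interval of 0.0743 to 1.48, which covers counting error only, so no difference was detectable. Its transcript sequence is shared with processed pseudogenes more than that of any other member, and the sources used here do not say how reads that fit several places were counted. Of the stretches of 36 bases in GENCODE transcripts of Tdg, 40.0% also occur on the same strand in transcripts of other genes. For 75 bases, a second length chosen because the sources used here give no read length, the share was 28.6%. The corresponding shares at 36 bases were 21.5% for Uhrf1, mainly with the pseudogene Gm5648, 12.4% for Dnmt3b, all with its paralogue Dnmt3c, and at most 0.978% for the other members. The low Tdg counts may therefore not stand for its transcript level, and what part sequence sharing had in them was not tested.

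The sharing is shown by a stretch of 30 coding bases of Tdg that 3 pseudogenes hold unchanged, and by the next 30 bases, where each differs. The first stretch lies on the plus strand at chr10:82638798-82638827 in GRCm38, starts at base 121 of the coding sequence and reads, 5′ to 3′, in the gene and in Tdg-ps (chr15:82516532-82516561), Gm9855 (chr10:42055229-42055258, minus strand) and Gm5597 (chr7:76245862-76245891, minus strand):
Tdg and the 3 pseudogenes: ccagcagtagctcctaacatggcaaccgtg
The next stretch (chr10:82638828-82638857, from base 151 of the coding sequence) differs from each pseudogene at 1 or 2 bases, given in capitals:
Tdg: acagaacagcaggtgcccgaagacgctcct
Tdg-ps: acagaacagcaggtgcccACagacgctcct
Gm9855: acagaacagcaggtgcccgCagacgctcct
Gm5597: acagaacagcaggtgcccgTagacgctcct
Of 33 such windows along the Tdg coding sequence that lie within 1 exon, 24 were identical in Tdg-ps, 25 in Gm9855 and 26 in Gm5597. None of the 3 pseudogenes had a row of its own in the table used here. Glt8d2, which overlaps Tdg on the opposite strand (6.04% of the Tdg stretches of 36 bases), was listed with 28, 24 and 51 counts.

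The starts of the members differ in CpG content, the substrate of the enzymes themselves. All 9 members matched the RefSeq promoter windows of 300 bases on GRCm38.p6, with 16 windows in all. The Tet2 window held 57 CpG dinucleotides, more than in 99.9% of the 32851 windows of all genes, whose median is 7. The single Tet1 window held 17, and the 3 Dnmt3l windows held 3, 4 and 6. Of the other members, the Dnmt3a windows held 46, 47 and 18, those of Dnmt1 33, 12 and 2, and those of Uhrf1 33 and 12. The Dnmt3b window held 30, that of Tdg 26 and that of Tet3 22. A high CpG count was thus not particular to Tet2. The 30 bases just before the outermost start, which overlap no annotated exon, are given for Tet2, Tet1 and Dnmt3l, 5′ to 3′ on the strand of the gene and with CpG in capitals:
Tet2 (chr3:133544391-133544420, minus strand): gctCGcatgccagtcaCGtcCGccccctCG
Tet1 (chr10:62887325-62887354, minus strand): gtaccCGCGcactcCGctCGtggaacactg
Dnmt3l (chr10:78042257-78042286, plus strand): cttaagctgtgatgggctgtttccttcttc
These stretches hold 4, 4 and 0 CpG. The series has no methylation or binding data in the files used here, so the letters describe the genome and not the libraries.

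In all, 6 lists of related genes were read beside the members, for whom they supply substrates, readers, partners and repair. Of 11 genes listed by name or family as methyl-CpG readers 0 were called in either direction, also at an unadjusted p under 0.05 and by DESeq2. Their median was -0.23. The list includes genes named for an MBD domain, such as Mbd5, and a place in it does not show binding to methylated DNA. Mbd5 (15.3 and 12.7 CPM in wild type, 10.3 CPM in K3R3) and Zbtb4 (3.90 and 3.87 against 5.22 CPM) had the largest differences, -0.44 and 0.43. Of 16 maintenance and targeting cofactors 0 were called by edgeR or DESeq2. At an unadjusted p under 0.05, where 7.9% of all genes were higher and 3.33% lower, 1 cofactor was higher and 1 lower. These were Dppa3, which protects methylation in the zygote (39.1 and 23.2 CPM in wild type, 47.6 CPM in K3R3; 0.61), and Usp7, a deubiquitinase that binds DNMT1 and UHRF1 (973 and 940 against 725 CPM; -0.40). Hells, the remodeler needed for methylation of repeats, was level, with 770 and 863 CPM in the wild-type pair and 770 CPM in K3R3.

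Of 7 tested TET cofactors and adaptors, 0 rose and 1 fell, against 2.02% and 0.542% of all genes. Sall1, a zinc finger factor, stood at 136 and 150 CPM in the wild-type pair and 81.8 CPM in K3R3, a fitted change of -0.81 (SE 0.21; adjusted p = 0.0150 by edgeR). DESeq2 did not call it (adjusted p = 0.0804), nor did edgeR with implied totals. Of 18 genes of base excision and deamination 0 were called by edgeR or DESeq2. At an unadjusted p under 0.05, where 7.9% of all genes were higher and 3.33% lower, 1 of the list was higher and 1 lower. These were Neil3, a DNA glycosylase (6.61 and 12.8 CPM in the wild-type pair, 17.7 CPM in K3R3; 0.87), and Apobec3, a cytidine deaminase that restricts retroviruses (142 and 138 against 92.5 CPM; -0.60). Of 13 tested methyl donor genes 0 were called by either tool or at an unadjusted p under 0.05. Gnmt (0.476 and 0.846 CPM in wild type, 1.84 CPM in K3R3) and Tdh, threonine dehydrogenase (383 and 398 against 305 CPM), differed most there, by 1.46 and -0.36.

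Germline genes whose promoters are silenced by DNA methylation in somatic cells made up the last list. Of 14 tested, 1 rose and 0 fell, against 2.02% and 0.542% of all genes, and DESeq2 called 0. With no adjustment, 4 were higher and 2 lower at p under 0.05, against 7.9% and 3.33% of all genes. Their median was 0.39, and 10 of the 14 lay above 0, as did 6644 of all 13829 genes tested. Markers of fibroblasts, the feeder cell type, had a higher median (0.51), with 12 of 16 above 0. Tdrd1, a piRNA pathway protein gene, had 3.43 and 5.00 CPM in the wild-type pair and 14.8 CPM in K3R3 (1.80, SE 0.39; adjusted p = 0.000420 by edgeR, 0.0620 by DESeq2). The 4 higher with no adjustment were Tdrd1, Ddx4, Taf7l and Slc25a31, and the 2 lower were Dazl and Rpl10l. Of these only Tdrd1 was called. Dazl, an RNA-binding protein gene of germ cells, had 18.8 and 10.1 CPM in wild type against 7.14 CPM in K3R3. For Rpl10l the values were 8.66 and 6.97 against 3.23 CPM. Of the 14 genes, 5 were classed as bivalent, Tdrd1 among them, as were 1671 of all 13829 genes tested.

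**Figure D4:**
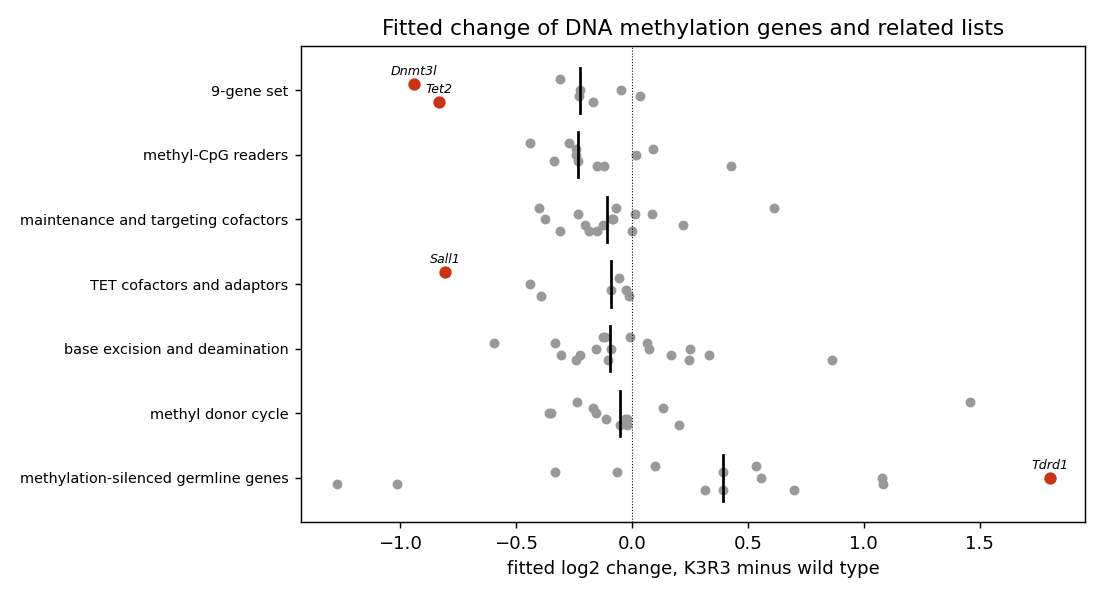
Fitted log2 change (K3R3 minus wild type) of each tested gene in the 9-gene set and in 6 related lists, with a bar at each list's median. Red points passed edgeR's test: Dnmt3l and Tet2, Sall1, and Tdrd1, which is the 1 called above 0.

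By the smallest distance of centred log2 CPM over the 3 libraries, the 5 genes nearest to Tet2 among 8520 whose mean was 10 CPM or more were Klf8, Tead4, Anp32a, Pcmtd1 and BC032203, at 0.01 to 0.05. Anp32a, for one, stood at 431 and 428 CPM in the wild-type pair and 244 CPM in K3R3. Over 3 libraries such a likeness rests on few values, and 16 of the 8520 genes lay within 0.1 of Tet2. Klf8 and Tead4, the nearest, were not called themselves (adjusted p = 0.0656 and 0.137 by edgeR), whereas Anp32a, Pcmtd1 and BC032203 were called lower. That all 5 were lower in K3R3 follows from choosing them by the pattern of Tet2. The pattern of Dnmt3l had fewer near neighbours. Hspb1, a small heat shock protein gene, was nearest at 0.07 (48.2 and 15.9 CPM in wild type, 16.6 CPM in K3R3). Ak1, Gpa33, Lgals3 and Htra1 followed at 0.20 to 0.34. All 5 were higher in wild-type replicate 1 than in the other libraries, which follows from choosing them by this pattern.

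Markers of cell state moved in the same comparison. Over all genes tested, 0.542% were called lower and 2.02% higher by edgeR, and 0.188% and 0.239% by DESeq2. All 8 ES cell markers were present, with a summed level of 4250 and 3287 CPM in the wild-type pair and 2770 CPM in K3R3. Of them 2 fell, Sox2 (668 and 680 against 440 CPM) and Dppa5a (1862 and 1189 against 1016 CPM), and 0 rose, while DESeq2 called 0. The fall of Dppa5a rested largely on wild-type replicate 1, since its difference was -0.87 against replicate 1, -0.23 against replicate 2 and -0.65 between them, and it was the gene with the highest level in that sum. Of 8 primitive endoderm markers 4 fell and 0 rose (2 and 0 by DESeq2), and their sum was 475 and 383 CPM in the wild-type pair and 199 CPM in K3R3. Of 18 fibroblast markers 16 were in the table (Lum and Postn were not rows there) and 1 rose, Thy1, with sums of 190, 164 and 222 CPM. Of these 16, 12 lay above 0 in the fit, as did 6644 of all 13829 genes tested. In CPM, 11 lay above both wild-type libraries and 0 below both, against 33.9% and 34.2% of all genes. At an unadjusted p under 0.05, 4 were higher and 0 lower, against 7.9% and 3.33% of all genes, while DESeq2 called 0. Tagln (36.7, 9.18 and 19.5 CPM) and Acta2 (27.3, 8.74 and 14.8 CPM), which were highest in wild-type replicate 1, weigh on the sums. The part of fibroblast RNA in the germline gene values was not tested. Of 6 primed epiblast markers in the table, 1 rose (T) and 1 fell (Otx2), with sums of 278, 239 and 226 CPM that include Dnmt3b. In bulk RNA, fewer cells of a type and less RNA per cell cannot be told apart, and the part of these markers in the fall of Tet2 was not tested. The libraries held between 21614693 and 25426228 counted reads. Chi-square per degree of freedom over the gene counts was 25.4 between the wild-type libraries. Between K3R3 and replicate 2 it was 21.7, and between K3R3 and replicate 1 it was 31.0. By this measure the wild-type libraries were no closer to each other than K3R3 was to replicate 2. H2afz, the gene of H2A.Z.1, stood at 219 and 232 CPM in the wild-type pair and 222 CPM in K3R3. Since the transgene and the hairpin act in both groups, that level checks neither label.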

How the data were processed

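The members and gene lists were chosen with earlier results of these data known. Whole-number counts of reads were deposited by the authors for each gene. The submitters' processing notes name HTSeq 0.5.4p1 and build mm9. Aligner, annotation and strand setting are not given in the sources used here. RPKM values, a gene length and a class score (active or bivalent, from an earlier study) were deposited by the authors beside them. The fold ratio, log2 value and unadjusted p-value deposited by the authors come from DESeq 1.10.1, per the submitters' processing notes. By the values they set wild type over K3R3, although the file headers name K3R3 first, and directions here come from the count columns. The table's smallest count was 1.

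Genes whose mean was 0.5 CPM or more were fitted with edgeR 4.0.16 in R 4.3.3 (TMM, quasi-likelihood test, two-sided, Benjamini-Hochberg at 0.05). Only the wild-type pair informs the spread, with 1 residual degree of freedom, so K3R3, with 1 library, is taken to vary as that pair does. The prior degrees of freedom were infinite, so the SE, interval and p-value of every gene in this test rest on the trend over all genes. Differences between single libraries use a prior count of 1 and have no test. Alternatives were DESeq2 1.42.0, its size factors, RPKM-implied totals, other filters and the likelihood ratio test. The edgeR script was tested on simulated data, with the variance of each gene drawn from the fitted trend. That test cannot show how a gene is treated whose replicates lie farther apart than the trend, such as Dnmt3l. Named genes are all members, every listed gene past the test or, in a list with none, the 2 with the largest fitted change, and the 5 nearest in pattern to each called member. Hells, Dazl, Rpl10l, Ddx4, Taf7l, Slc25a31, H2afz, Aire, Glt8d2, the pseudogenes, Dnmt3c and the markers named were added after their values or sequences were seen. Of the related lists, 1 gene is not reported here. Sequences came from GENCODE M21 and RefSeq.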

Additional observations from a re-analysis of the deposited data

How the results depend on the processing

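Tet2 kept its direction and its call under all 6 alternatives (-0.84 to -0.71; adjusted p between 0.00273 and 0.0322 by edgeR or DESeq2). Dnmt3l lost its call with DESeq2 (-0.94), so 1 member was called lower there. Uhrf1 turned to 0.078 with totals implied by RPKM. Over all genes DESeq2 called 33 higher and 26 lower, and implied totals gave 465 higher and 50 lower against 280 and 75. Of the related lists, 1 gene was called higher (Tdrd1) and 1 lower (Sall1). DESeq2 called 0 and 0, and implied totals 2 (Tdrd1 and Ddx4) and 0. Genes at least 2-fold from wild type numbered 268 higher and 22 lower. With implied totals 11 were lower, and without 1 wild-type replicate 419 to 567 were higher and 35 to 121 lower. The cause of these shifts was not tested, except that a single reference library is an easier rule to meet than both. No paired analysis was possible because K3R3 has 1 library and no replicate number. Leaving out a wild-type replicate leaves no residual degree of freedom, so those values have no test. K3R3 had no replicate, so no difference here could be set against a spread within K3R3. Depth limits Tdg (3 to 8 counts per library).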
